A study of Caenorhabditis elegans with 2 samples.

Results

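The genes described here are the transfer RNA (tRNA) genes on the autosomes of Caenorhabditis elegans, and the question is where a summit of SNPC-4 binding lies at them. Members were all genes of biotype tRNA on chromosomes I to V in the Ensembl annotation of WBcel235, apart from the selenocysteine gene K11H12.t1; this gave 335 of the 46890 annotated nuclear genes. Binding was mapped by chromatin immunoprecipitation followed by sequencing (ChIP-seq), which recovers the DNA fragments held by a protein. Whole worms at the L4 stage, the final larval one, of both sexes were used, from strain OP179. This strain has the genotype unc-119(ed3) III; wgIs179, and its integrated transgene encodes eGFP-tagged snpc-4. There was 1 group of 2 biological replicates, and both carry the same transgene and unc-119 mutation. The labels name snpc-4 as the target of the antibody and give no promoter or copy number for the transgene. The question such a design addresses is which promoters SNPC-4 occupies. Control samples were not analysed here, so nothing was tested over samples, and shares of members are set beside those of other annotated genes. The read depth is unknown because the peak lists hold no read counts.

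SNPC-4 is related to the largest subunit of the vertebrate complex SNAPc, which binds an element upstream of small nuclear RNA (snRNA) genes, including some that RNA polymerase III reads. RNA polymerase III also transcribes tRNA genes, but in the textbook account these carry their promoter inside the gene. The A box and the B box are bound by TFIIIC, which places TFIIIB just upstream of the start, and a run of T ends transcription. These elements were counted in the members. How the genes were annotated is not given here, so the counts describe the members and do not test their label. The B box core GTTCNANNC occurred on the gene's own strand in 318 of 335 members (94.9%), against 1.59% of windows of 75 bases after protein-coding 5′ ends. A run of at least 4 T in the 20 bases after the gene was found at 328 members (97.9%), against 21.7% of protein-coding windows of the same length. For the A box core, TGGNNNAGT was present in the first 30 bases of 102 members (30.4%; 0.466% of protein-coding windows) and the looser TNGNNNAG, chosen after seeing that share, in 278 (83.0%; 6.12%).

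The sequences that follow are those of 6 of the 7 members of highest signal, since the strongest summits turn on them, and of 2 members whose gene is identical to that of the strongest but whose signal was lower. They are from the RefSeq genome of WBcel235, which has the coordinates of ce11. Each runs 5′ to 3′ on the strand of the gene, from 60 bases upstream of its 5′ end to its 3′ end, and capitals mark the A box core TNGNNNAG and the B box core GTTCNANNC.
C27A2.t1, tRNA-Ile, chrII:5057447-5057580, minus strand: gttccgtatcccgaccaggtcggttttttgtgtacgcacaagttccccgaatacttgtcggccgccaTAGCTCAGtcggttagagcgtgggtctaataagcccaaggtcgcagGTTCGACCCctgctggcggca
T21B4.t1, tRNA-Ile, chrII:12494681-12494814, plus strand: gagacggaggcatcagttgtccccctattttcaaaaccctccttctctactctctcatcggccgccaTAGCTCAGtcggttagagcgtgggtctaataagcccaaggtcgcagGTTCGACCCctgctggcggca
Y119D3B.t1, tRNA-Ile, chrIII:1218376-1218509, minus strand: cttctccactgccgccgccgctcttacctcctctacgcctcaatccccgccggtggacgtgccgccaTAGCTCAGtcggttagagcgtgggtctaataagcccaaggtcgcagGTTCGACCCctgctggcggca
ZC412.t1, tRNA-Phe, chrV:14876389-14876521, minus strand: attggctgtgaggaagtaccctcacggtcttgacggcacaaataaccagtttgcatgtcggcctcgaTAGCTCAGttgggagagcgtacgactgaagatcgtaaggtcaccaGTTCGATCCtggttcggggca
Y37A1B.t1, tRNA-Ala, chrIV:14013805-14013936, minus strand: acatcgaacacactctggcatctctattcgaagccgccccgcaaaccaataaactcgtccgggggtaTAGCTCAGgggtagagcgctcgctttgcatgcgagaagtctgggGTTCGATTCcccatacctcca
T19C4.t1, tRNA-Leu, chrV:11174790-11174933, minus strand: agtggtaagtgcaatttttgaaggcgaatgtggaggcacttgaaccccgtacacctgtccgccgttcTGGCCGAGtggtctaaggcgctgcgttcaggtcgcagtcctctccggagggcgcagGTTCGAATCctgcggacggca
ZK1067.t1, tRNA-Tyr, chrII:9211804-9211947, minus strand: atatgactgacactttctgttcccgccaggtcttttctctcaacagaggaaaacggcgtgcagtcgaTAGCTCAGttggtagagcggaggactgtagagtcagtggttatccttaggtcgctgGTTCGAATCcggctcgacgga
K06A4.t1, tRNA-Ala, chrV:9503502-9503633, plus strand: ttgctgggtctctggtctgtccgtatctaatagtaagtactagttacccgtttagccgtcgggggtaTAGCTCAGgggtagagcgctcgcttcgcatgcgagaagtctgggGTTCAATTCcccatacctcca

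A small part of the autosomal tRNA genes had a summit in the thresholded list of SNPC-4 peaks, led by genes for isoleucine, lysine, phenylalanine and alanine tRNAs. The summit at the leading lysine gene, M01E5.t1, is about as near to the spliced leader gene sls-2.9, so its signal cannot be credited to the tRNA gene alone. The other lysine genes with such a summit had signals of 21.4 to 25.4. A gene was counted where a summit lay within 300 bp of its 5′ end. In the authors' optimal list thresholded by the irreproducible discovery rate (IDR), which holds 381 peaks made from both replicates, 29 of 335 members had a summit (8.66%, exact Clopper-Pearson 95% interval 5.87 to 12.2, covering the counting of genes only). The same share was 0.661% over protein-coding genes and 0.874% over all nuclear genes. The 29 members lay at 27 summits, out of 306 on the autosomes. The authors' pooled list, with 30000 entries from both replicates, and the list of each replicate were made as input for IDR and hold background as well as peaks. A summit in them alone is therefore not a called binding site, and which of these entries are background is not marked. In the pooled list 229 members had a summit (68.4%, 63.1 to 73.3), against 23.4% of protein-coding genes and 23.7% of all nuclear genes. All 381 IDR peaks were the 381 strongest entries of that list.

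The tRNA share grew steadily as entries of lower signal were taken. Among the 762 strongest of the pooled list 49 members had a summit (14.6%), among 3048 there were 109 (32.5%), and among 11042 there were 178 (53.1%). Over the same steps the protein-coding share was 1.34%, 4.63% and 11.2%. The snRNA genes had 31.5% of 89 genes at the IDR peaks and 56.2% (45.3 to 66.7) in the full pooled list, an interval that overlaps that of the tRNA genes. In the full list of replicate 1 the shares were 45.7% for the tRNA genes and 46.1% for the snRNA genes. Small nucleolar RNA (snoRNA) genes had 11.3% of 344 at the IDR peaks and 48.5% in the pooled list. For the 276 tRNA genes of the X chromosome the shares were 2.54% (7 genes, highest signal 25.6 at R11.t1) and 59.1%. No difference between these classes was tested.

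**Figure D1:**
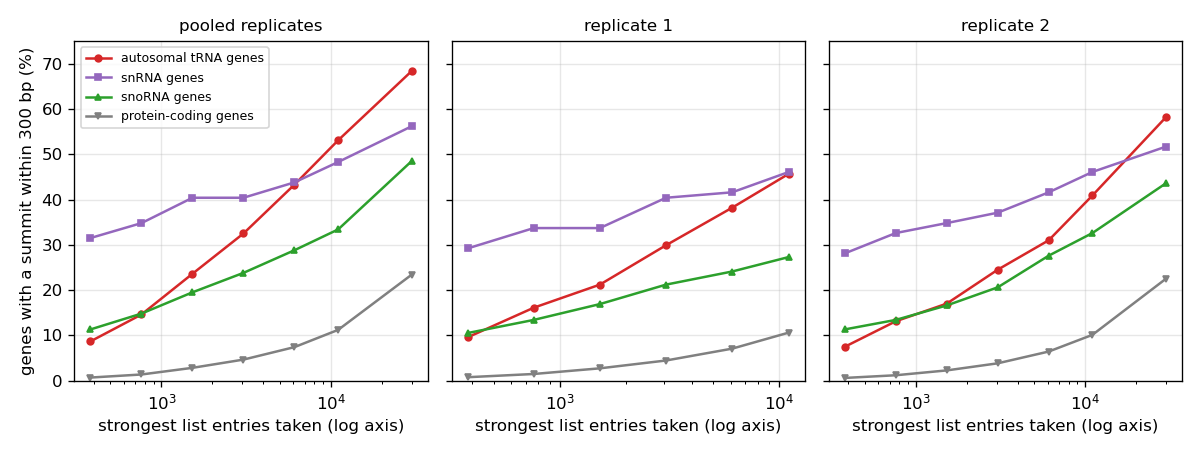
Percent of genes of each class with a summit within 300 bp of the 5′ end (vertical axis) against the number of strongest list entries taken (horizontal log axis), for the pooled list and each replicate list. In the pooled list the line of the autosomal tRNA genes runs between 8.66% and 68.4% and crosses that of snRNA genes, which it does not in replicate 1, while protein-coding genes stay at or below 23.4%.

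The number of members found depended little on the distance allowed. Within 150 bp 28 members had an IDR summit (8.36%), against 0.255% of protein-coding genes, and within 1000 bp 38 did (11.3%), against 1.36%. The farthest inside the 300 bp limit were T23F1.t2 at 181 bp, W09G10.t3 at −98 bp and W09G10.t2 at 67 bp. Nearest outside it were the tRNA-Tyr gene C16D9.t4 at 513 bp (signal 258), the tRNA-Thr gene C53D6.t1 at −570 bp (signal 27.3) and the tRNA-Ala gene Y65A5A.t1 at 808 bp (signal 22.1). The summit at 808 bp is that of another member, Y65A5A.t2, which it lies 8 bp from. Y65A5A.t1 itself had a nearer entry in the pooled list alone, at 25 bp with signal 20.6. The count within 1000 bp can thus include summits of neighbouring members.

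The signal of a peak is the peak caller's value in the authors' file; its scale is not stated, so it orders peaks within a list only. At the 29 members it had a median of 33.3 and a range of 21.4 to 351, against a median of 31.7 over all 381 IDR peaks. Counted per summit, the median was 35.0 at the 27 summits of the autosomal tRNA genes, 83.9 at 27 summits of snRNA genes, 188 at 39 of snoRNA genes and 27.8 at 105 of protein-coding genes. The members ranked between 33rd and 375th of the 381. C27A2.t1, which encodes an isoleucine tRNA, had a signal of 351 in the list of both replicates, 165 in replicate 1 and 181 in replicate 2, and ranked first of the members. It lies in an intron of the protein-coding gene C27A2.12, on the same strand.

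The lysine tRNA gene M01E5.t1 (chromosome I, 13297673 to 13297745, minus strand) had 275 in the combined list, 128 in replicate 1 and 150 in replicate 2. Its summit is also that of sls-2.9, an SL2 spliced leader gene on the opposite strand, and lies −63 bp from the tRNA gene and −69 bp from the spliced leader gene. Among the 29 members this was the only summit shared with a small RNA gene outside the tRNA and piRNA classes (miRNA, snoRNA, rRNA, snRNA, SmY, spliced leader, Y RNA and the RNAs of RNase MRP and RNase P). The phenylalanine tRNA gene ZC412.t1, in an intron of ZC412.10, had 211, with 90.0 in replicate 1 and 118 in replicate 2. At Y37A1B.t1, an alanine tRNA gene outside protein-coding genes, the values were 175 combined, 91.4 in replicate 1 and 82.6 in replicate 2. In these 4 genes the replicates placed the summit at ranks between 32 and 59 of their own lists.

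Next in order came the leucine tRNA gene T19C4.t1 in an intron of gpa-1, which encodes a G protein subunit; it had 104 combined, 43.2 in replicate 1 and 55.6 in replicate 2. ZK1067.t1, a tyrosine tRNA gene whose own transcript contains an intron, had 101 combined, 44.8 in replicate 1 and 55.4 in replicate 2. For the alanine gene K06A4.t1, inside swt-5 (a sugar transporter gene), the values were 83.9, 37.5 and 46.2. The threonine gene F11H8.t1 had 65.1, 30.7 and 31.6 in the same order, and the alanine gene Y105C5A.t2 had 58.8, 27.2 and 29.1. C38C6.t1, a leucine gene in an intron of the chemoreceptor gene sre-13, had 51.8 combined, 15 in replicate 1 and 35.0 in replicate 2. The second isoleucine gene, T21B4.t1 in an intron of the collagen gene col-85, had 51.2, with 23.5 in replicate 1 and 26.6 in replicate 2.

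The remaining 18 members had signals between 21.4 and 37.6, on both sides of the IDR list median of 31.7. Among them were the alanine gene Y7A9D.t2 (37.6), the leucine gene C16D9.t2 (37.5), the glycine gene Y57G11B.t1 (35.0), the methionine gene C16D9.t3 (33.3) and the proline gene F02H6.t1 (30.6). Both C16D9 genes lie in introns of rol-3, a receptor tyrosine kinase gene, on its own strand. The strongest cysteine and asparagine genes were ZC412.t2 (25.2), in an intron of the neuropeptide receptor gene npr-13, and ZK507.t1 (24.3), in an intron of dos-1. At the very end stood ZK994.t3 (threonine, 22.2), Y65A5A.t2 (alanine, 22.1) and B0350.t1 (lysine, 21.4).

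**Figure D2:**
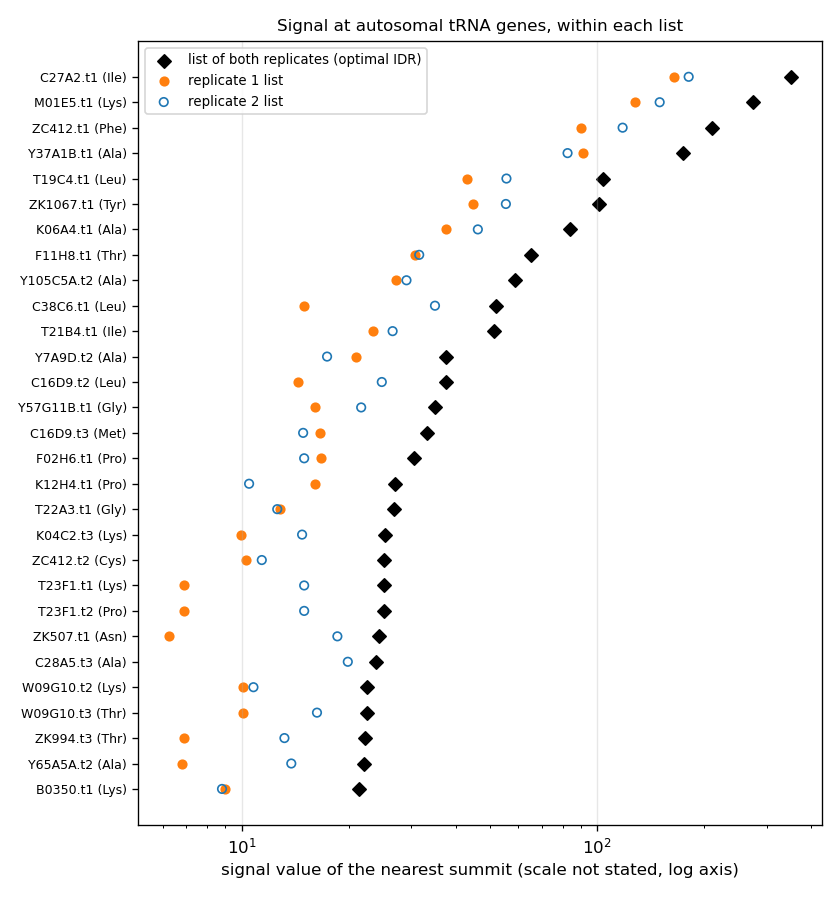
Signal value (horizontal log axis) of the nearest summit at each of the 29 autosomal tRNA genes with an IDR summit, in the list of both replicates (diamonds), the replicate 1 list (filled circles) and the replicate 2 list (open circles); isotypes stand in parentheses. The upper 4 genes lie between 175 and 351 in the list of both replicates and the lowest is at 21.4; C28A5.t3 has no point for replicate 1.

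By isotype, the alanine genes had the highest share with an IDR summit, at 6 of 21 genes (28.6%). Lysine followed with 5 of 28 (17.9%), then cysteine with 1 of 6, threonine with 3 of 20, and leucine and proline with 3 of 22 each (13.6%). Isoleucine had 2 of 16, glycine 2 of 35, and phenylalanine, tyrosine, methionine and asparagine 1 gene each, of 8, 11, 12 and 14. In these counts 2 summits enter under 2 isotypes each. That of T23F1.t1 and T23F1.t2 counts for lysine and proline, and that of W09G10.t2 and W09G10.t3 for lysine and threonine. The lysine count also includes M01E5.t1, whose summit is also that of sls-2.9. No gene of the other 8 isotypes (Arg, Asp, Gln, Glu, His, Ser, Trp and Val) had an IDR summit, although these make up 118 members. This depends on where the list is cut. The arginine gene F13G11.t1 had a pooled signal of 21.3, just under the lowest IDR signal of 21.4. The 381 strongest peaks of replicate 1 included 1 gene each of Arg, Asp, His and Trp and 2 of Val, and those of replicate 2 included 1 of Val. The counts per isotype are small, and no order between them was tested. The same isotypes did have pooled summits: 13 of 17 arginine genes (76.5%), 13 of 17 valine genes (76.5%), 9 of 11 histidine genes (81.8%) and 13 of 21 serine genes (61.9%) had a summit, against 13 of 21 alanine genes (61.9%). The median signal of the pooled summits was 20.6 at alanine genes, between 6.08 and 10.7 at the other 19 isotypes, and 8.33 over all 229 members with one. RefSeq gave no isotype for 2 members, DY3.t2 and C08E8.t3, and neither had a summit in any list.

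**Figure D3:**
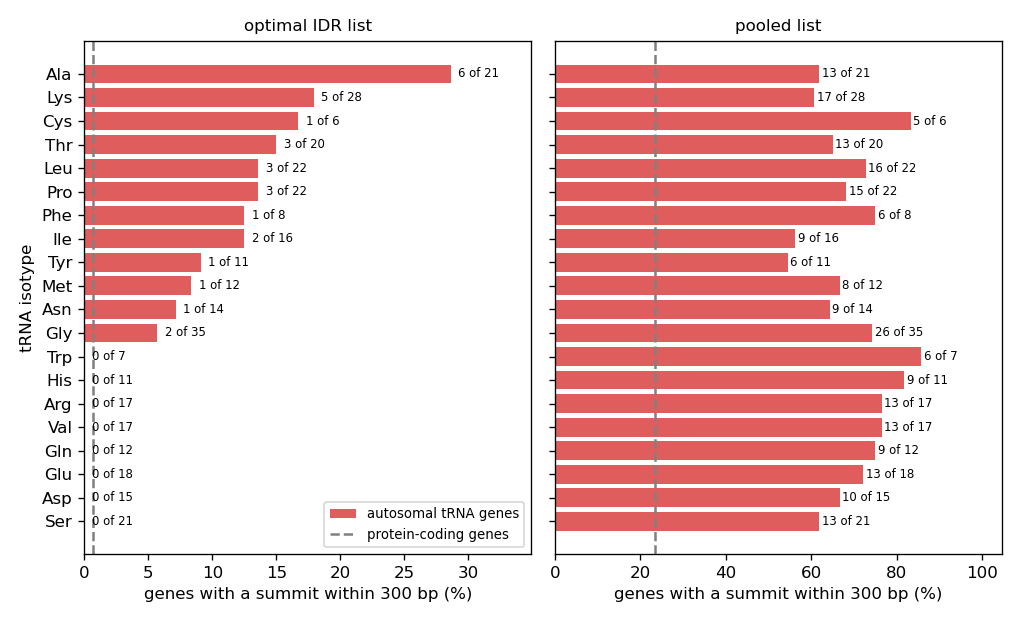
Percent of autosomal tRNA genes of each isotype with a summit within 300 bp of the 5′ end, in the optimal IDR list (left) and the pooled list (right), with counts beside the bars; the dashed line is the share of protein-coding genes (0.661% and 23.4%). Alanine leads at the IDR peaks with 6 of 21 genes, whereas in the pooled list every isotype lies above the dashed line.

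Copies of one tRNA gene lay at different places in the order of the lists. Of the 29 members, 23 have at least 1 other nuclear tRNA gene of identical sequence, as do 250 of all 335. These 23 fell into 15 sets of identical genes with 121 copies on the autosomes, and each of the 15 sets also held a copy without an IDR summit. The isoleucine set shown above has 9 autosomal copies. C27A2.t1 and T21B4.t1 ranked 33rd and 114th in the pooled list with signals of 351 and 51.2, 5 copies had pooled signals of 3.94 to 7.04 (Y119D3B.t1 the lowest, Y92C3A.t2 the highest), and T09B4.t1 and T09B4.t2 had no summit in any list. C27A2.t1, T21B4.t1 and Y119D3B.t1 thus share the whole gene, with both boxes, and differ in the 60 bases before it. In the alanine set of Y37A1B.t1 (175) 2 of 5 copies had an IDR summit, the other being Y105C5A.t2 (58.8), and the weakest copy had a pooled signal of 3.84. The lysine set of M01E5.t1 held 15 copies, of which 3 had an IDR summit. The sources used here do not give how reads from identical genes were assigned, and the part of this in the differences was not tested.

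Summits lay close to the 5′ end, and the stronger ones just upstream of it. Over the 29 members the median offset was −14 bp, where negative is upstream, with quartiles at −20 and 22 bp; 19 lay upstream, 9 inside the gene and 1 past its 3′ end. Among the 15 members with a signal at or above the median of the IDR list, a division made after seeing the data, 14 had the summit upstream, between −63 and −3 bp, with a median of −17 bp; Y57G11B.t1, at 54 bp, was the exception. Among the 14 members below that median 5 lay upstream and 9 downstream, with a median of 17.5 bp. At the 200 members with a pooled summit but no IDR summit 96 lay upstream and 101 downstream, and the median was 4 bp. In the genes printed above the summit was at −16 bp for C27A2.t1, −17 bp for both ZC412.t1 and Y37A1B.t1, −27 bp for T19C4.t1, −45 bp for ZK1067.t1 and −26 bp for K06A4.t1.

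**Figure D4:**
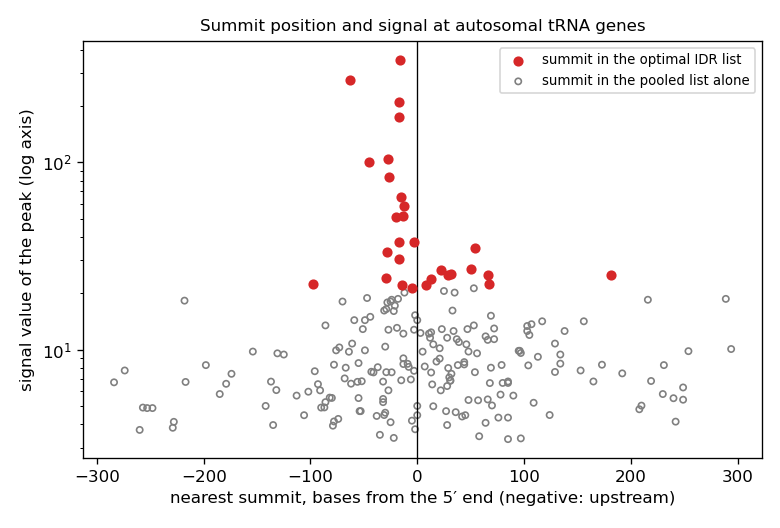
Signal of the peak (vertical log axis) against the distance in bases of the nearest summit from the 5′ end (horizontal axis, negative upstream), for the 29 autosomal tRNA genes with an IDR summit (filled) and the 200 with a pooled summit alone (open). The filled points above 40 all lie between −63 and −12 bp, while the weaker points lie on both sides of the 5′ end.

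Earlier results on these peaks named the 8-mers GCGGAACC and GGCCGACA as frequent at SNPC-4 summits. Searched on both strands from 250 bases before to 50 after the 5′ end, GCGGAACC was at 0 of the 29 members and at 1 of the other 306, and in 0.410% of such windows over all nuclear genes. GGCCGACA was at 3 of the 29, at 1 of the 306, and in 0.482% of all windows. The 3 were C27A2.t1, ZC412.t1 and K12H4.t1, and in each the match was on the opposite strand and straddled the 5′ end of the gene, between positions −5 and 3 counted from the first base of the gene as 0. These matches are letters in a window and show no site. The B box core was in 28 of the 29 members with an IDR summit and in 290 of the other 306, and the T run at 28 and 300. TNGNNNAG was in 27 of the 29 and in 251 of the 306. Thus 9.71% of members with this core had an IDR summit, against 3.51% (2 genes) of the 57 members without it. In the pooled list the order was the reverse, with 67.6% of members with the core and 71.9% of those without it. None of these differences was tested.

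Members inside and outside protein-coding genes had an IDR summit at similar rates, and the difference was not tested. Of the 193 members that lie within a protein-coding gene on either strand 17 had an IDR summit (8.81%), and of the 139 outside them 12 did (8.63%); 3 members overlap a protein-coding gene in part and had none. In the pooled list the shares were 65.8% inside and 72.7% outside. The replicates differed in this. The full list of replicate 1 had a summit at 77 of the 193 members inside and 76 of the 139 outside, and that of replicate 2 at 115 and 79. Among the 381 strongest peaks the shares inside and outside were 7.77% and 12.2% in replicate 1 and 6.74% and 8.63% in replicate 2. All 17 were in introns, as were 187 of the 193. On the strand of the host gene 12 of 115 members had an IDR summit (10.4%), and on the opposite strand 5 of 78 (6.41%).

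Other annotated 5′ ends lay within 300 bp of many of the same summits, most of them of transcripts that run over the tRNA genes. The summit of T23F1.t1 (lysine) and T23F1.t2 (proline), with signal 25.1, and that of W09G10.t2 (lysine) and W09G10.t3 (threonine), with signal 22.5, were each shared by 2 members. The T23F1 summit lies 29 bp from the 5′ end of T23F1.t1 but 181 bp from that of T23F1.t2, past its 3′ end. T23F1.t2 had a nearer entry in the pooled list alone, at −20 bp with signal 11.4 (rank 1521). It thus counts among the 29 only through the summit at its neighbour. The W09G10 pair also had the start of clec-126, a C-type lectin gene, within 300 bp. No other member shared its summit with a protein-coding 5′ end. The 5′ ends of 7 genes of piRNAs, which are small RNAs of the germ line, lay within 300 bp of the summits of 4 members, Y105C5A.t2, Y57G11B.t1, F02H6.t1 and B0350.t1, all on chromosome IV. No share over other members or genes stands beside this count, so it only describes these summits. Unclassified non-coding RNA genes had a 5′ end within 300 bp of the summit at 22 of the 29 members. Such genes overlap 192 of all 335 members on the opposite strand; 22 of these 192 had an IDR summit (11.5%), against 7 of the 143 members without one (4.90%). ChIP-seq carries no strand, so strand does not separate binding at the tRNA gene from binding at the transcript over it. The distances to the 2 kinds of 5′ end differed. The summit lay −16 bp from C27A2.t1 and 100 bp from the unclassified gene C27A2.10, and −17 bp from ZC412.t1 and 93 bp from ZC412.12. At K12H4.t1 the unclassified gene was nearer, at 30 bp against 50 bp, and at T23F1.t2 it was also nearer. Which of the 2 is bound was not tested.

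The replicate lists were read for the same members. All 29 members had a summit within 300 bp in the replicate 2 list, and 28 had one in the replicate 1 list, which is shorter (11042 entries against 30000); C28A5.t3, an alanine gene, had 19.9 in replicate 2 and none in replicate 1. Across all 112 members with a summit in both replicate lists, the signals of the replicates had a Spearman rho of 0.57. It was 0.76 for the 28 members with an IDR summit and 0.17 for the 84 without one. That division follows signal, since the IDR list holds the strongest pooled entries. All members were read from the same libraries and are not independent of each other. In the full lists 153 members had a summit in replicate 1 (45.7%, against 10.6% of protein-coding genes) and 195 in replicate 2 (58.2%, against 22.5%). No list held a summit at 82 members.

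**Figure D5:**
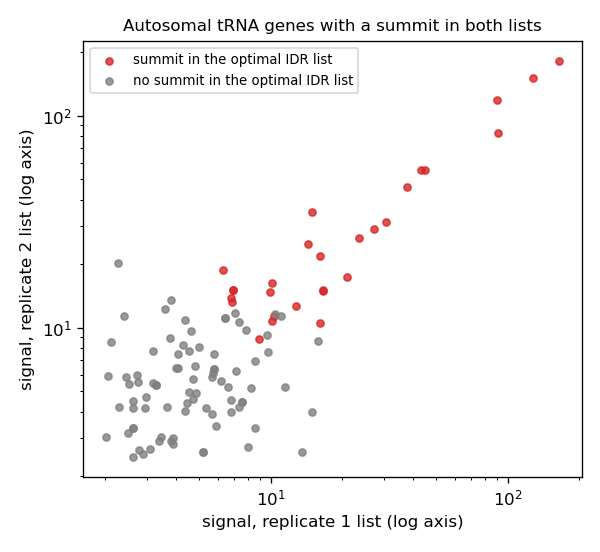
Signal of the nearest summit in the replicate 2 list (vertical log axis) against that in the replicate 1 list (horizontal log axis) for autosomal tRNA genes with a summit in both, split by whether they have an IDR summit (28 genes) or not (84 genes). C27A2.t1 is the highest in both, at 165 and 181; the IDR list holds the strongest entries of the pooled list, so the group with an IDR summit lies toward higher signal by its choice.

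With the 381 strongest peaks of each replicate, 32 members had a summit in replicate 1 (9.55%, against 0.736% of protein-coding genes) and 25 in replicate 2 (7.46%, against 0.576%). Both sets held 19 members, all of them also at the IDR peaks. Chromosome IV stood apart in this comparison: 15 of its 70 members were among the strongest peaks of replicate 1 and 5 among those of replicate 2, while on the other autosomes the counts for replicates 1 and 2 were 2 and 1 on chromosome I, 6 and 6 on II, 3 and 5 on III, and 6 and 8 on V. All 9 members that were among the strongest of replicate 1 without an IDR summit are on chromosome IV. The valine gene Y73F8A.t1 led them, with 15.8 in replicate 1 and 8.62 in replicate 2, and the tryptophan gene sup-24, named for its nonsense suppressor alleles, had 11.5 and 5.27. Protein-coding genes of chromosome IV showed a like imbalance, with 34 genes at the strongest peaks of replicate 1 and 11 at those of replicate 2, and the lists themselves had 89 and 60 peaks there. Whether the members differ from the rest of chromosome IV in this was not tested.

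Among members without an IDR summit, the highest pooled signals were 21.3 at F13G11.t1 (arginine), 20.6 at Y65A5A.t1 (alanine), 20.2 at K03B8.t1 (valine) and at Y57G11C.t1 (histidine), and 18.9 at W09G10.t1 (histidine). These lie just under the IDR list, whose lowest signal was 21.4. K03B8.t1 had 20.1 in the replicate 2 list, where it was among the 381 strongest peaks, and 2.27 in that of replicate 1, where it was not. Y65A5A.t1 had 14.9 in replicate 1, among its 381 strongest, and 3.98 in replicate 2, outside them.

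The protein-coding genes of the same pathway were listed for comparison. Aminoacyl-tRNA synthetases load each tRNA with its amino acid; of 38 symbols listed, 32 were found in the annotation, and 0 had an IDR summit. In the pooled list 7 of the 32 had one (21.9%), against 23.4% of all protein-coding genes.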

How the data were processed

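The lists deposited by the authors are in narrowPeak format, with a signal of unstated scale, the summit and a q-value as −log10 for each peak. The authors' −log10 q-values were read but support no result. Lists on ce11 were used; the ce10 lists were not used here. Per the file records, the optimal IDR list was made from both replicates, the pooled list from the alignments of both, and each replicate list from its own alignments; the pooled and replicate lists also drew on 1 further file in common, whose content the records do not describe. By the records' own output type the pooled and replicate lists hold peaks and background, as input for IDR. The sources used here give no aligner, peak caller or threshold. Depth per sample is unknown.

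Genes came from Ensembl release 115 (WBcel235); RefSeq records added names and isotypes by WormBase identifier, and RefSeq also gave the genome sequence. Anticodons were not used. Each gene took the summit nearest to its 5′ end within 300 bp; offsets follow the direction of transcription. Equal numbers of strongest peaks were used to compare replicates. Analyses used Python 3.11.15, pandas 2.3.3 and scipy 1.17.1; assignment of summits was tested on simulated data. Genes were named by a rule: the 15 of highest signal, the strongest of each isotype, summits shared with other small RNA genes, the 3 weakest, those nearest the distance limit, those missing from a replicate list and the 5 strongest without an IDR summit; the X-linked, synthetase, identical-copy and chromosome IV genes named besides were chosen after their values were seen. The members, lists and motifs were chosen with earlier results of these data known.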

Additional observations from a re-analysis of the deposited data

How the results depend on the processing

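With 1 group, no control sample and unknown depth, no result was tested over animals, and absence from a list is not absence of binding. No paired analysis was possible because there was only 1 group. Of 41 alternative values 34 stayed within 1.5 times the count, or within the 95% interval of the share or of the median over members, and 7 did not. The number of members with a summit was 15 with the stronger 50% of the IDR peaks, 229 in the full pooled list, 153 in the full replicate 1 list and 195 in the full replicate 2 list, all by construction of those lists. With the stronger 50% the share was 4.66% inside and 4.32% outside protein-coding genes. With each replicate left out the count ranged between 25 and 32, the share inside protein-coding genes between 6.74% and 7.77%, the share outside between 8.63% and 12.2%, and the median offset between −14.5 and −9 bp. The A box core TNGNNNAG, added after seeing the data, was in 93.1% of the 29 members instead of 31.0% for TGGNNNAGT.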

Other observations

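Gene copies, neighbours and sequence gave further values for the members. Of the 250 members with an identical copy elsewhere 184 had a pooled summit (73.6%), against 45 of the 85 whose sequence occurs a single time among nuclear tRNA genes (52.9%); at the IDR peaks the shares were 9.20% and 7.06%. The B box core was missing from 17 members, and 8 of these had a pooled summit (47.1%), against 221 of the 318 with the core (69.5%). At the IDR peaks the shares were 5.88% (1 gene) and 8.81%. Members with another tRNA 5′ end within 600 bp had a pooled summit in 52 of 66 cases (78.8%), against 177 of 269 (65.8%) for the rest, and neighbours can share 1 summit. For IDR summits the order was the reverse, with 4 of the 66 (6.06%) against 25 of the 269 (9.29%). Among the 17 members whose transcript contains an intron, 1 had an IDR summit, ZK1067.t1 (5.88%), against 28 of the 318 without an intron (8.81%). The 50 bases upstream had a median GC content of 46.0% at the 29 members with an IDR summit and 44.0% at the other 306. None of these differences was tested.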
